A study of Mus musculus with 4 samples.

Results

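The 6 Dlx homeobox genes of the mouse, Dlx1 to Dlx6, were examined for CpG methylation in embryonic stem cells with and without an inducible knockout of Ogt. They were chosen by family name, 6 of 21631 protein-coding genes on the autosomes and X, and lie as neighbouring pairs in 3 clusters. Each cluster was taken from 20 kb before its lower gene to 20 kb after its higher gene in mm10. The genes were picked with the difference between knockout and control in these same libraries in view. All values of that difference given for them are therefore descriptions, with no test read from them.

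Methylation was measured by whole-genome bisulfite sequencing in 4 libraries, 2 of Ogt iKO cells and 2 of control cells. Both groups carried the genotype Ogt fl/fl; the iKO cells had grown for 6 days with 4-hydroxytamoxifen (4-OHT), the drug that switches on the deletion, and the controls for 6 days without it. Cells were cultured on mitomycin C-treated mouse embryonic fibroblasts, and live cells were sorted to remove these feeders. The labels name CD90.2 as the marker kept for stem cells and CD326 as the marker of the feeders, the reverse of their usual expression, and methylation files cannot show which cells the gate kept. A YFP+ gate was applied to treated cells only, so the deletion, the drug and the gate cannot be told apart. Nothing in the labels says that the 2 libraries of a group came from separate cultures, and the spread between them may be technical. Bisulfite reads 5-methylcytosine and 5-hydroxymethylcytosine alike, so a methylation level here is the sum of both, as a percentage of reads from many cells.

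DLX proteins are homeodomain transcription factors related to the Distal-less protein of flies. Each cluster is a pair of genes facing each other tail to tail, with shared enhancers in and around the stretch between them. Dlx1, Dlx2, Dlx5 and Dlx6 act in the forebrain, where they direct the formation of GABAergic interneurons, and in the jaw skeleton. Dlx3 acts in epidermis, hair, teeth and placenta, and Dlx4 is the least studied member. In embryonic stem cells such developmental genes are mostly silent, and many lie in broad stretches with little CpG methylation that are bound by Polycomb proteins, often called methylation valleys.

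The promoter sequences that follow show CpG-dense starts, of Dlx1 and Dlx2, inside such a stretch, and CpG-poor starts, of Dlx6os1, inside and beside one. They are RefSeq windows on GRCm38.p6, the assembly that mm10 names, from 250 bases before to 50 after a transcription start, written in the direction of transcription with every CG in capitals. Of the 6 members, 2 are in the table used, Dlx1 and Dlx2. Dlx6os1 is a long noncoding RNA gene of the Dlx5-Dlx6 cluster with 2 starts in the table.
Dlx1 (chr2:71529195-71529494, + strand): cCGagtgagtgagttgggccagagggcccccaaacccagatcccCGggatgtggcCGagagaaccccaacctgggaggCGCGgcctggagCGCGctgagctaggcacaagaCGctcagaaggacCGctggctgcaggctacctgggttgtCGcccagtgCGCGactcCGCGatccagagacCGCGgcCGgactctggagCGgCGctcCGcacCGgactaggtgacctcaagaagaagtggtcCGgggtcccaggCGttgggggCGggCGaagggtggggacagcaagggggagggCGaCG
Dlx2 (chr2:71546705-71547004, - strand): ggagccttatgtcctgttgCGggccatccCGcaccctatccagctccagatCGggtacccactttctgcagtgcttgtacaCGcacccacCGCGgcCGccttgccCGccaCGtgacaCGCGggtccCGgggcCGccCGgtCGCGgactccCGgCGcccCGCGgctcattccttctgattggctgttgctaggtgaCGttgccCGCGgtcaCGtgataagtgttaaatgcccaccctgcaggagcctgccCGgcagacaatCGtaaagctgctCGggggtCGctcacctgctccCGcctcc
Dlx6os1, start between the low-methylation stretches of Dlx6 and Dlx5 (chr6:6869484-6869783, - strand): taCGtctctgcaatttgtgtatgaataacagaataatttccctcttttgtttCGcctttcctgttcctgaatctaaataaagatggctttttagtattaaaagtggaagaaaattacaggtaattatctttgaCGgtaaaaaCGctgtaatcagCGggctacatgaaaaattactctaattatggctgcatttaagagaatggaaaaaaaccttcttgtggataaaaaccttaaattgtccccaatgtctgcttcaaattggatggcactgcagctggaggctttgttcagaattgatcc
Dlx6os1, start inside the low-methylation stretch of Dlx6 (chr6:6861634-6861933, - strand): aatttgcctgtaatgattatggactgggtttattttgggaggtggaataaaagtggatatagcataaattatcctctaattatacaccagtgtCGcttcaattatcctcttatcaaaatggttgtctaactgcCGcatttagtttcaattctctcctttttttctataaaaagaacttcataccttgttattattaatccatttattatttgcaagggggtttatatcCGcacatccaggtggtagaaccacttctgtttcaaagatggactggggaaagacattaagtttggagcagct
The Dlx1 window holds 27 CpGs and the Dlx2 window 29, against a median of 7 over 32851 promoters of the same 300 bases; 84.5% and 87.1% of those promoters hold fewer. All of these CpGs are listed in the deposited tables. At Dlx1, 1 of 55 reads was methylated in iKO replicate 1, and 0 of 63, 0 of 34 and 0 of 64 were methylated in iKO replicate 2, control replicate 1 and control replicate 2. At Dlx2, 0 of 67 and 0 of 57 reads were methylated in iKO and 0 of 58 and 0 of 50 in control. A count of 0 at these depths still allows at least 4.48% to 6.00% at Dlx2, taking 3 reads as the limit and counting error only. At Dlx1 the 3 counts of 0 allow at least 4.69% to 8.82%. A read that covers several CpGs counts once at each, so the counts are not independent and the true limits are higher. Within these limits both windows had at most 1 methylated read per library.

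The start of Dlx6os1 between the low stretches holds 5 CpGs, with 39.3% and 28.1% methylated reads in iKO and 50.0% and 53.1% in control, on 18 to 32 reads each. The other start holds 3 CpGs and read 8.33%, 25%, 27.3% and 11.1% on 9 to 12 reads, so the groups overlapped there. The letters TAATTA, a core that homeodomain proteins can bind and that reads alike on both strands, occur 2 times in the window between the stretches, 1 time in the other Dlx6os1 window and 0 times in the Dlx1 and Dlx2 windows. They occur in 5.29% of all promoters in the table. A match is a description of the letters, not a bound site.

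Depth was modest. The libraries held 79929994 and 70974957 reads over CpGs in iKO and 68488024 and 64273609 in control, or 3.36 to 4.05 reads per CpG. Of 20677079 CpGs listed, 79.0% had at least 1 read in every library and were used. Over all 1637280 measured 1 kb bins (at least 3 such CpGs and 10 reads in every library) the mean level was 68.8% and 66.5% in iKO against 73.7% and 77.7% in control, a difference of -8.05 points (iKO minus control, as for all differences here), and 79.1% of bins were lower. Depth over the 441 CpGs of Ogt (chrX:101640011-101684351), relative to the X chromosome, was 1.25 and 1.20 in iKO and 1.28 and 1.19 in control; the labels do not give the deleted part, and whole-gene depth did not separate the groups. Promoters of the stem cell genes Sox2 and Klf4 had 0 methylated reads in all 4 libraries and that of Pou5f1 at most 4.30%, while Nanog read 3.45% and 4.44% in iKO and 9.30% and 14.7% in control. Zfp42 read 5.92% and 1.84% in iKO and 15.1% and 9.09% in control, and Dppa3 2.99% and 9.64% against 16.1% and 36.0%, so the last 3 were partly methylated in control. Among feeder fibroblast genes, the promoter of Thy1 read 5.67% to 14.7%, that of Col1a1 23.7% to 47.6% and that of Col1a2 8.20% to 10.4%. Their part in the results was not tested.

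In the 3 Dlx intervals 2612 CpGs were used, in 185 bins of 1 kb, of which 169 were measured. A low-methylation domain was a run of at least 2 measured bins whose mean over the 4 libraries was at most 30%, with runs parted by at most 2 other bins joined. Border bins lay within 3 kb outside a domain edge, and the flank was the rest of the interval. The intervals held 6 domains of very different width.

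The Dlx1-Dlx2 interval (chr2:71508113-71566754) had a single domain of 21 kb, chr2:71527001-71548000, which covered Dlx1 (chr2:71528113-71533981), Dlx2 (chr2:71543408-71546754), the antisense gene Dlx1as (chr2:71530638-71537891) and the whole stretch between the genes. Over 570 CpGs in 21 bins the level was 13.9% and 12.9% in iKO and 13.4% and 11.9% in control. Its width was 20 and 23 kb when delimited in the iKO libraries alone and 21 kb in each control. Within it, 11 of 21 bins were under 10% and 2 were above the 30% limit, the highest at 37.6%. The lower of these, at the end of Dlx1, read 34.4% and 37.2% in iKO and 31.9% and 38.3% in control. The higher, in Dlx1as, read 36.6% and 37.1% in iKO and 52.6% and 24.0% in control, and between them a bin read 8.93% to 15.3%. Both genes thus sat in 1 stretch that the rule joins across separate higher bins, and the groups overlapped in each of the 2.

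The Dlx5-Dlx6 interval (chr6:6843334-6902068) had 2 domains of 11 kb each. That of Dlx6, chr6:6855001-6866000, covered the lower-coordinate part of Dlx6 (chr6:6863334-6867970), all of the noncoding gene Dlx6os2 and a part of Dlx6os1 (chr6:6820543-6871627), and read 6.85% and 7.75% in iKO and 7.75% and 5.51% in control over 8 measured bins. That of Dlx5, chr6:6872001-6883000, covered Dlx5 (chr6:6877801-6882068) and a part of the stretch between the genes, and read 15.0% and 12.2% in iKO and 9.21% and 11.4% in control. The groups overlapped at Dlx6 and did not overlap at Dlx5. The Dlx6 domain was joined across adjacent bins with too few reads or CpGs to be measured. Of these, chr6:6857001-6858000 read 66.7% and 52.9% in iKO and 50.0% and 42.9% in control. The next, chr6:6858001-6859000, read 30.8% and 66.7% in iKO and 33.3% and 53.8% in control. Another unmeasured bin inside it, chr6:6862001-6863000, read 0% in each library. Delimited in single libraries, the Dlx6 domain was 11 kb in all 4, and the Dlx5 domain was 10 and 11 kb in iKO and 11 and 13 kb in control. Inside the latter 1 bin was above the 30% limit, at 35.4%, and outside both domains 2 border bins were under it. These read 21.7% and 26.7% in iKO and 7.69% and 5.00% in control between the domains, and 0% and 25% in iKO and 9.09% and 4.26% in control beyond Dlx5.

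The Dlx3-Dlx4 interval (chr11:95100117-95166294) had 3 short domains. Outside them 2 measured bins were also under 30%, 1 within Dlx4 and 1 in the flank before Dlx3, which the rule leaves out because a single bin makes no domain. A domain of 2 kb at one end of Dlx3 (chr11:95120117-95125296) read 8.78% and 4.81% in iKO and 5.36% and 4.24% in control. The 2 kb domain at one end of Dlx4 (chr11:95140447-95146294), shared with the noncoding gene Dlx4os, read 7.41% and 5.92% in iKO and 8.36% and 5.87% in control. The remaining domain, of 3 kb at chr11:95105001-95108000, overlapped no RefSeq gene and read 10.8% and 8.56% in iKO and 1.60% and 4.63% in control. Groups overlapped at the Dlx3 and Dlx4 domains and were apart at the domain outside genes. The limit of 30% cut close to some bins: those just inside it averaged 26.3%, 26.5% and 27.1% and those just outside it 30.5%, 33.9% and 34.1%.

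**Figure D1:**
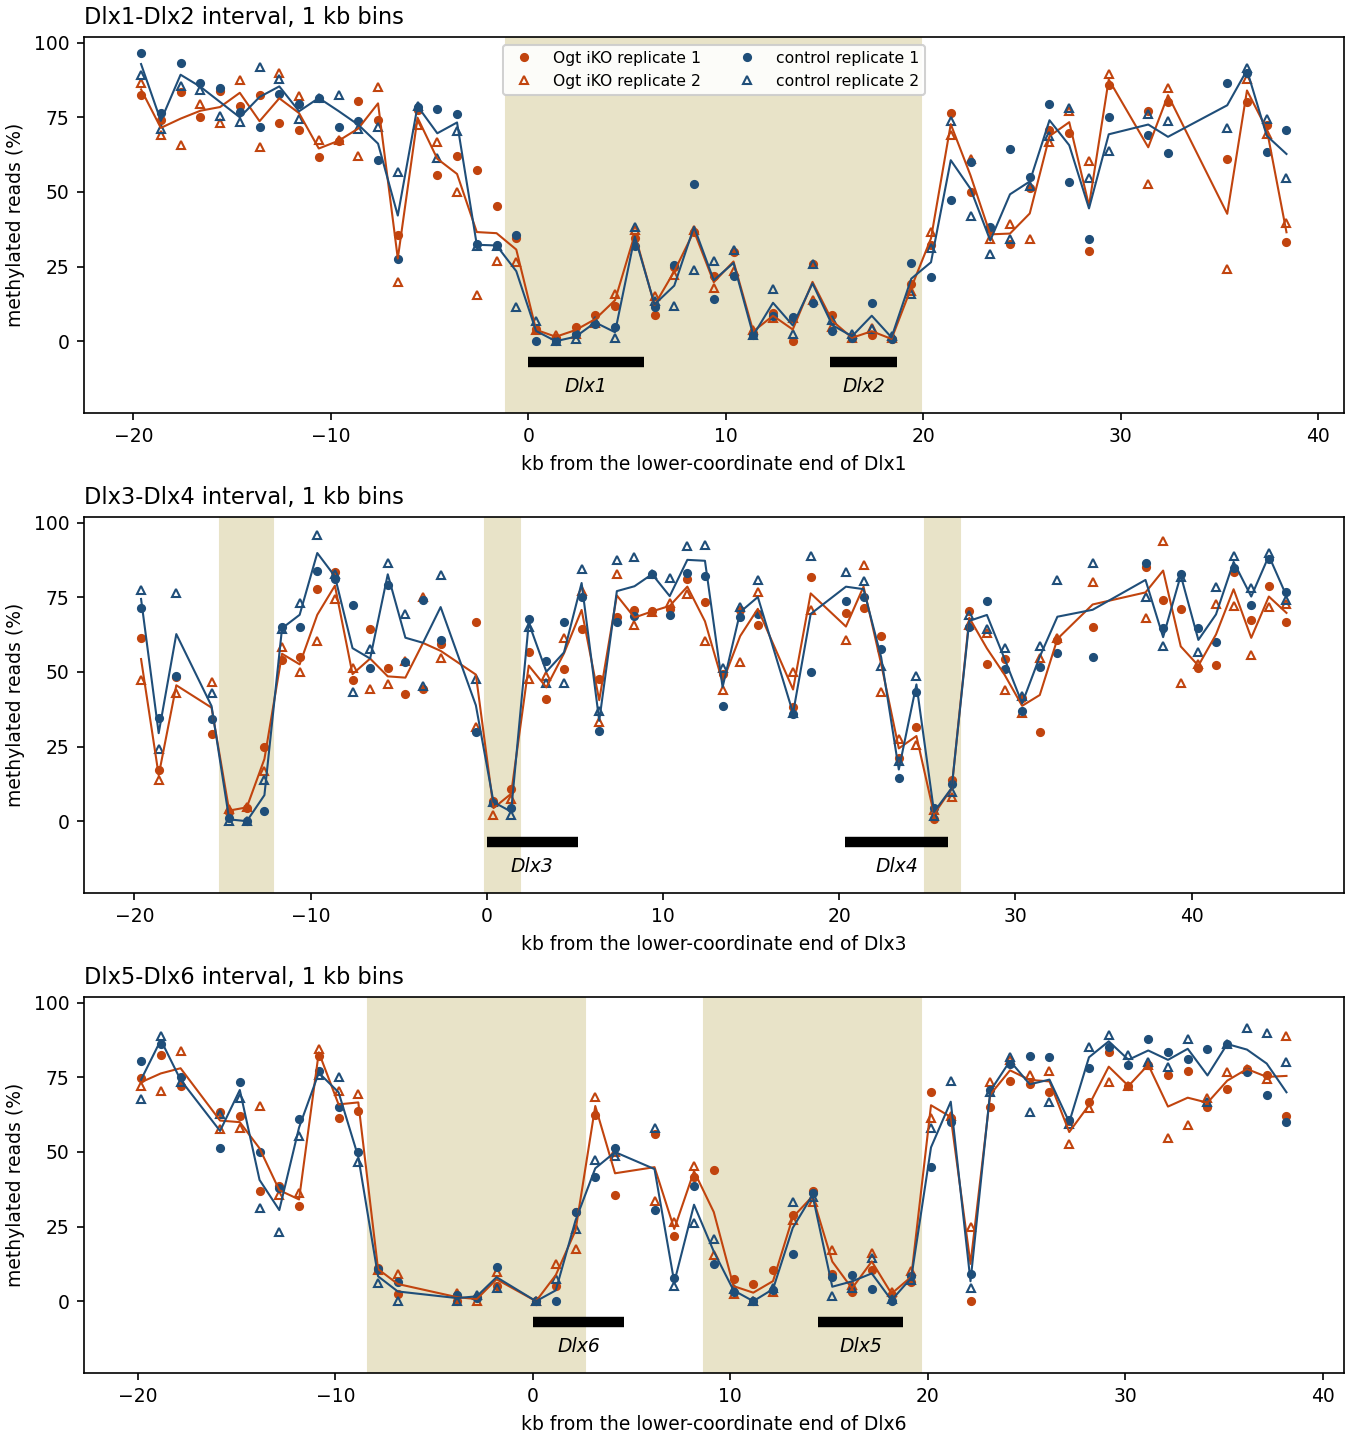
Methylated reads (%) in each measured 1 kb bin of the 3 Dlx intervals, by library, against distance in kb from the lower-coordinate end of the lower gene; lines join group means, shaded bands are the low-methylation domains and black bars the genes. The Dlx1-Dlx2 panel shows 1 domain of 21 kb, the Dlx5-Dlx6 panel 2 of 11 kb and the Dlx3-Dlx4 panel 3 of 2 to 3 kb.

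The stretch between the paired genes differed between clusters in the same way. Between Dlx1 and Dlx2 (9.43 kb, 195 CpGs) the level was 18.1% and 15.4% in iKO and 15.7% and 16.6% in control. Between Dlx5 and Dlx6 (9.83 kb, 107 CpGs) it was 26.3% and 19.0% in iKO and 15.2% and 24.8% in control. Between Dlx3 and Dlx4 (15.2 kb, 176 CpGs) it was 67.3% and 64.3% in iKO and 66.0% and 79.7% in control. In none of the 3 were the groups apart, while the stretch of Dlx3-Dlx4 was the most methylated in every library.

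At the promoters, levels were low in 5 of the 6 genes. The window ran from 1000 bp before to 500 bp after the start. The starts of Dlx3 to Dlx6, which the promoter table lacks, were taken as the gene end with more CpGs. Those of Dlx1 and Dlx2 came from the promoter table. The Dlx1 start used lies inside the gene span, so the part of the span before the window is in neither promoter nor body. The Dlx6 window (chr6:6862334-6863833, 37 CpGs) had 0 methylated of 72 and 106 reads in iKO and 0 of 79 and 150 in control. With the counts taken as independent, this allows up to 4.17%, 2.83%, 3.8% and 2.00%. Dlx1 (chr2:71528445-71529944, 49 CpGs) read 2.45% and 1.32% in iKO and 0% and 0.84% in control, on 93 to 163 reads. Dlx5 (chr6:6881569-6883068, 46 CpGs) read 5.84% and 3.54% in iKO and 5.77% and 3.09% in control. These 3 were the least methylated of the family, and at Dlx1 the difference of 1.47 points rests on 4 and 2 methylated reads against 0 and 1. The 0 of 93 reads in control replicate 1 allows up to 3.23%, above both iKO values, so no difference was detectable there at this depth.

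Dlx2 (chr2:71546255-71547754, 50 CpGs) read 8.75% and 6.42% in iKO and 8.62% and 6.94% in control, and Dlx4 (chr11:95145795-95147294, 57 CpGs) 12.7% and 9.09% in iKO and 11.8% and 9.16% in control. Dlx4 was above Dlx2 in every library, and at both genes the groups overlapped. The Dlx3 window (chr11:95119117-95120616) stood apart from the other 5, with 9 CpGs and 53.8% and 28.6% in iKO against 29.0% and 29.4% in control, on 21 to 39 reads. Its difference of 11.99 points came from iKO replicate 1 and was -0.65 points without that library. In a narrower window of 500 bp on each side, 5 CpGs of Dlx3 read 7.14% and 8.33% in iKO and 5.88% and 8.70% in control. For the other 4 genes with any methylated read the difference was 1.47 points or less in size and changed sign at Dlx2, Dlx4 and Dlx5 when single libraries were left out. At Dlx2 it was -8.34 points over the 5 CpGs that each library covers with at least 3 reads; at Dlx5 it was 1.69 points in the 500 bp window.

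Gene bodies outside these windows were more methylated than the promoters in all 4 libraries at Dlx1, Dlx4, Dlx5 and Dlx6, and less so in all 4 at Dlx2. Dlx2 (101 CpGs) read 4.07% and 4.03% in iKO and 6.30% and 4.89% in control, a difference of -1.54 points. Its order depends on the window. With 500 bp on each side of the start the Dlx2 promoter read 1.69% and 1.19% in iKO and 2.11% and 2.61% in control, below these body values. Dlx1 (131 CpGs) read 12.4% and 13% in iKO and 8.44% and 9.03% in control, 3.99 points higher in iKO, so neighbouring members of a single domain lay on opposite sides. Dlx5 (121 CpGs) read 6.29% and 10.8% in iKO and 7.02% and 6.38% in control, with groups that overlapped. Dlx6 (68 CpGs) read 22.6% and 29.9% in iKO and 23.4% and 20.9% in control, again with overlap.

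In the remaining cluster, the body of Dlx3 (116 CpGs) read 25.6% and 31.1% in iKO and 29.6% and 26.5% in control, a difference of 0.30 points. That of Dlx4 (116 CpGs) read 36.6% and 31.8% in iKO and 38.5% and 38.7% in control, a difference of -4.38 points with the groups apart. Groups were thus apart and lower in iKO at 2 of the 6 bodies and apart and higher at 1. Of 19696 gene bodies genome-wide with at least 5 CpGs and 10 reads in every library, 81.1% were apart and lower and 0.934% apart and higher; nothing is read from the count of members, which the choice of genes used.

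By zone, the domains of the Dlx clusters were level with or slightly above control in iKO, while their flanks were below. In the Dlx1-Dlx2 cluster the domain averaged 13.4% ± 0.724 in iKO and 12.7% ± 1.05 in control (SD, n = 2), a gap of 0.72 points, less than the larger SD, which became -0.02 points without control replicate 2 and -1.47 points with at least 3 reads per CpG. In the Dlx3-Dlx4 cluster the 7 domain bins averaged 7.99% ± 1.78 in iKO and 4.74% ± 0.188 in control, 3.25 points higher. Without the domain that overlaps no gene the difference was 0.77 points, an alternative chosen after the values were seen. It was also 0.31 to 1.20 points with at least 3 reads per CpG, in 0.5 kb or 2 kb bins or with a limit of 40%, and 1.99 points without iKO replicate 1, so its size depends on these choices. In the Dlx5-Dlx6 cluster the 19 domain bins averaged 10.9% ± 0.889 in iKO and 8.76% ± 0.240 in control, 2.17 points higher with groups apart. Over all 47 domain bins the libraries read 12.3% and 10.9% in iKO and 10.1% and 9.66% in control; 29 bins were higher and 17 lower.

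At the borders the 3 clusters differed in direction. In the Dlx5-Dlx6 cluster the 11 border bins averaged 50.6% and 54.3% in iKO and 43.3% and 47.1% in control, a difference of 7.22 points, with 8 bins higher and 3 lower. In the Dlx3-Dlx4 cluster the 16 border bins averaged 51.9% and 48.3% in iKO and 55.1% and 59.6% in control, a difference of -7.23 points, with 3 bins higher and 13 lower. Without the domain that overlaps no gene, the Dlx3-Dlx4 border difference was -4.75 points, an alternative chosen after the values were seen. The 6 border bins of Dlx1-Dlx2 averaged 54.0% and 43.2% in iKO and 45.0% and 47.0% in control, a difference of 2.62 points with groups that overlapped, of -2.77 points without iKO replicate 1, of -2.61 points with at least 3 reads per CpG and of -1.84 points with a domain limit of 40%. Groups were apart in the first 2 of these clusters, on opposite sides.

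The border value of Dlx5-Dlx6 was above 0 in each of 9 other settings (2.98 to 8.15 points) and without each library in turn (5.29 to 9.15 points). That of Dlx3-Dlx4 was below 0 in each of 9 settings (-11.3 to -1.57 points) and without each library (-9.49 to -4.98 points). Zones were not redrawn when a library was left out. Since groups were apart at both borders, leaving out a library could not change either sign. Among the settings, counting only domains that overlap a Dlx gene left the Dlx5-Dlx6 value unchanged. A domain limit of 20% left the Dlx3-Dlx4 value unchanged. The exact permutation test over the 6 arrangements of the library labels cannot give a two-sided p below 0.333, so none is given for these means.

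The flanks were lower in iKO in all 3 clusters, each time with groups apart. The 29 flank bins of Dlx1-Dlx2 averaged 66.8% and 65.5% in iKO and 71.1% and 71.0% in control, a difference of -4.91 points. Those of Dlx3-Dlx4 (36 bins) averaged 62.0% and 61.8% against 65.8% and 71.6%, a difference of -6.76 points, of -3.87 points without control replicate 2 and of -9.66 points without control replicate 1. Those of Dlx5-Dlx6 (24 bins) averaged 67.1% and 67.9% against 73.4% and 72.0%, a difference of -5.25 points. Together 68 of 89 flank bins were lower in iKO and 21 higher, beside 79.1% lower among all bins, where the mean is -8.05 points. The Dlx5-Dlx6 value was -0.85 points in 0.5 kb bins. With at least 3 reads per CpG no domain was found at Dlx5-Dlx6. Its value of -2.89 points in that setting covers all measured bins of the interval, not the flank alone. That of Dlx3-Dlx4 was -3.87 points with at least 3 reads and -9.80 points with edges from replicate 1 and values from replicate 2. The Dlx1-Dlx2 value was -7.50 points in 2 kb bins.

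**Figure D2:**
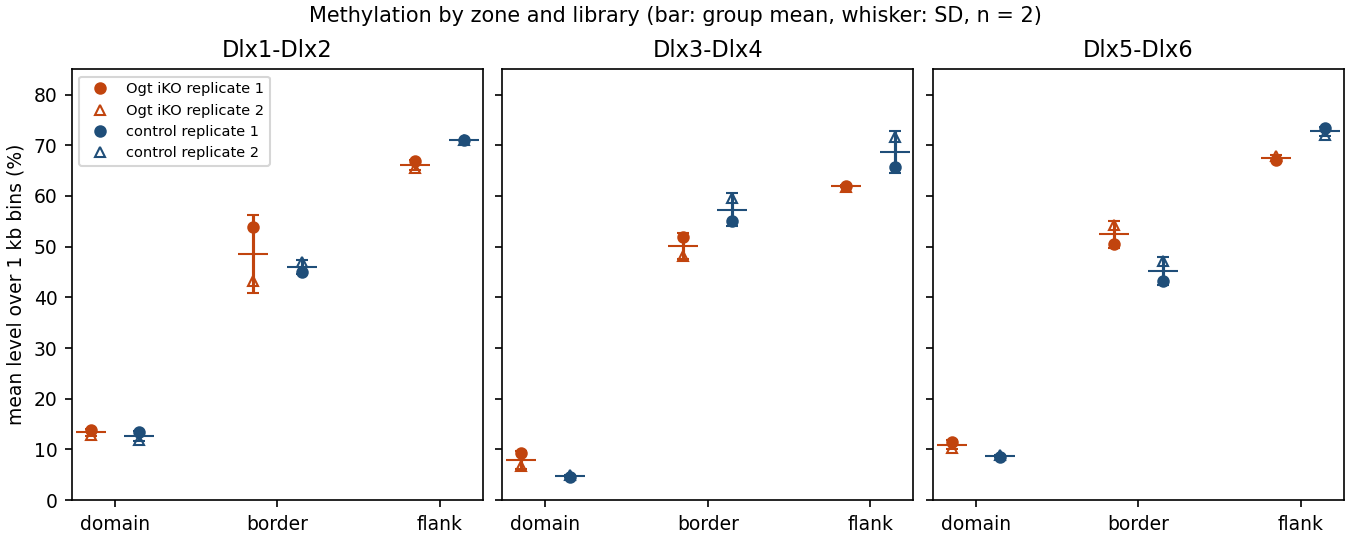
Mean methylation level (%) over the measured 1 kb bins of each zone, by library, with the group mean (bar) and SD (whisker, n = 2), for the 3 Dlx clusters. All flank means are lower in Ogt iKO, whereas the border means are higher in Ogt iKO at Dlx5-Dlx6 and lower at Dlx3-Dlx4.

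The 2 sides of a cluster were not alike. The 20 kb before Dlx1, which hold an end of Metap1d (chr2:71453281-71525194), a mitochondrial methionine aminopeptidase gene, read 65.2% and 60.1% in iKO and 70.4% and 70.6% in control. The 20 kb after Dlx2 read 52.8% and 53.0% in iKO and 52.9% and 52.0% in control, so the difference went from -7.89 points on the former side to 0.46 points on the latter. Both stretches include an end of the domain and its border bins, so the contrast is not one of the flank alone. The border bins differed by -17.2, 4.26 and 4.12 points before Dlx1 and by 8.01, 12.1 and 4.50 points after Dlx2. Before Dlx6, 20 kb that include most of its domain read 38.6% and 40.6% in iKO and 38.0% and 33.5% in control, and after Dlx5 the levels were 64.4% and 64.1% against 66.1% and 67.2%. Around Dlx3 and Dlx4 both sides were lower in iKO, at 40.5% and 38.2% against 48.3% and 50.1% before Dlx3 and 59.5% and 57.0% against 62.1% and 67.4% after Dlx4.

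Of the 12 single bins with the widest differences, 1 lay inside a domain. These bins were the 2 lowest and 2 highest differences per cluster among bins with at least 5 CpGs and 20 reads in each library and groups apart. At Dlx3-Dlx4 the bin chr11:95114001-95115000 read 51.2% and 45.8% in iKO and 79.1% and 86.4% in control, a difference of -34.2 points, and chr11:95110001-95111000 differed by -20.7 points. On the other side, chr11:95107001-95108000, in the domain outside genes, read 25% and 16.7% in iKO and 3.57% and 13.9% in control, and chr11:95143001-95144000, within Dlx4, was 7.09 points higher. At Dlx5-Dlx6, chr6:6851001-6852000 read 31.8% and 36.4% in iKO and 61.1% and 55.3% in control, a difference of -24.1 points, and chr6:6891001-6892000 differed by -16 points. The bins chr6:6854001-6855000 and chr6:6883001-6884000, both next to a domain edge, were 18.3 and 14.1 points higher in iKO. At Dlx1-Dlx2 the last bin, from chr2:71566001, differed by -26.2 points over its 12 CpGs inside the interval and by -15.3 points over all 22 CpGs of the whole bin, and chr2:71524001-71525000 by -17.2 points, while chr2:71560001-71561000 and chr2:71520001-71521000 were 13.9 and 13.5 points higher.

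Just outside the domains, the 3 broad Dlx domains and the mean over all broad domains lay on opposite sides of 0, while the bins directly outside the 3 short domains of Dlx3-Dlx4 took both signs, from -17.3 to 10.3 points. At the 6 edges of the Dlx1-Dlx2, Dlx5 and Dlx6 domains, the bin directly outside averaged 52.6% and 51.3% in iKO and 38.1% and 40.3% in control, 12.8 points higher in iKO. The same bin at 2957 edges of all domains of at least 5 kb averaged 49.0% and 46.7% in iKO and 57.8% and 60.4% in control, a difference of -11.3 points. Each of the 6 bins outside the broad Dlx domains was higher in iKO; these bins were singled out after their values were seen. The 4 that belong to Dlx5 and Dlx6 were 11.2 to 20.9 points higher with groups apart, on 19 to 70 reads per library. The bins outside the Dlx1-Dlx2 domain were 4.12 points higher (45.5% and 26.9% in iKO, 32.1% and 32.0% in control, overlapping) and 8.01 points higher (32.4% and 36.5%, 21.6% and 31.3%, apart).

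Further out the Dlx difference was smaller or below 0. In the next bin outward the Dlx difference was 2.99 points, in the third 0.12 points and in the fourth -6.23 points, against -10.5, -10.4 and -10.3 points at all broad domains. From the fifth to the fifteenth bin the Dlx means lay between -8.37 and 3.18 points and were below 0 in 9 of 11. The facing edges of Dlx6 and Dlx5 lie 6 kb apart, so their outward bins are the same ones in reverse order. The sixth bin from each is the bin directly outside the other and enters the means at both distances. In the last bin inside the edge the difference was 2.81 points at the Dlx domains and -4.35 points at all broad domains. The Dlx edges read 24.2% and 16.2% in iKO and 20.6% and 14.2% in control there, so the groups overlapped. Only 2 to 6 Dlx edges contribute to each of these means, and they come from the same 4 libraries.

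**Figure D3:**
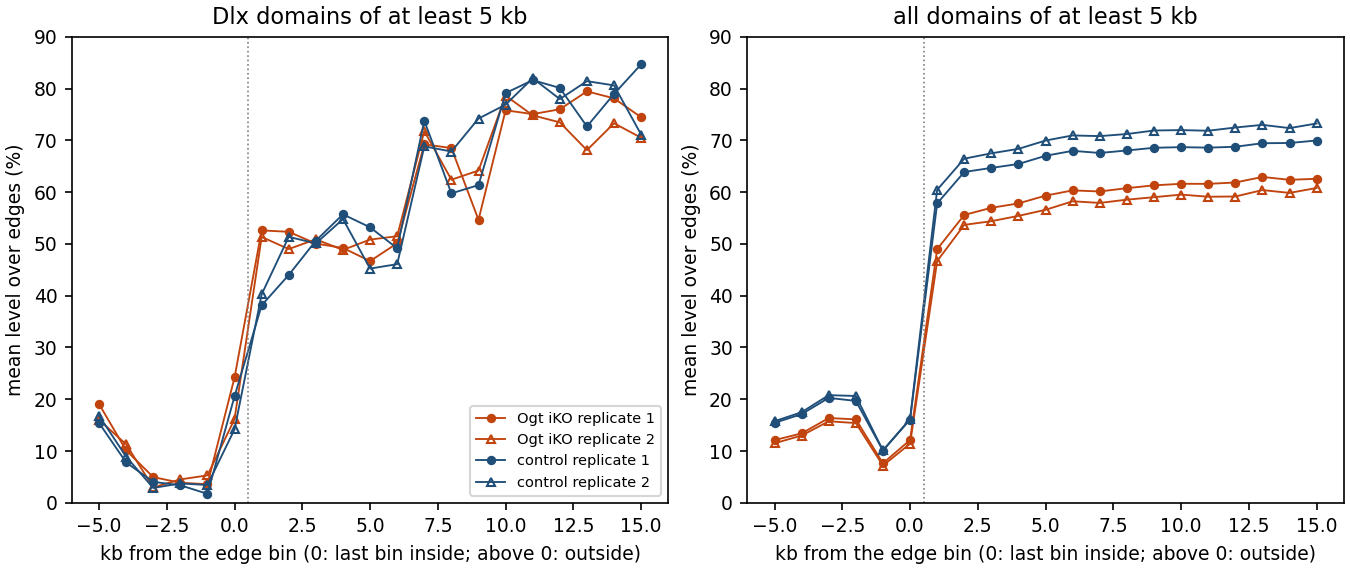
Mean methylation level (%) by library against distance in kb from the last bin inside a domain edge, for the 6 edges of Dlx domains of at least 5 kb (left) and the edges of all domains of at least 5 kb (right). In the bin just outside the edge Ogt iKO is 12.8 points above control at the Dlx domains, and over all such domains the difference is -11.3 points.

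Set among all domains found by the same rule, the domains of Dlx1-Dlx2, Dlx6 and Dlx5 were broad and those of Dlx3 and Dlx4 were of the smallest width the rule allows. The rule gave 14673 domains with a median width of 2 kb; 9 of them, or 0.0613%, were at least as wide as the Dlx1-Dlx2 domain, and 197, or 1.34%, at least as wide as the Dlx6 and Dlx5 domains, while 41.0% were at least as wide as the domain outside genes near Dlx3. The median domain of at least 5 kb (1680 domains) had a difference of -3.32 points, with 10% of domains below -10.0 points and 10% above 1.14 points, and 17.7% of them were higher in iKO. Of the 254 domains of at least 10 kb, nearer in width to these, 26.0% were higher in iKO and 10% lay above 2.26 points. The difference of the Dlx1-Dlx2 domain stood at percentile 87.5 of the 1680 domains of at least 5 kb, that of Dlx6 at 87.1 and that of Dlx5 at 97.4.

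Borders of the broad domains had a median difference of -10.7 points, with 10% below -18.8 points and 10% above -2.62 points; for those of at least 10 kb the median was -8.77 points and 10% lay above -0.12 points. The border of the Dlx1-Dlx2 domain, at 2.62 points, stood at percentile 97.6 of those of at least 5 kb, that of Dlx6, at 6.97 points, at 99.5 and that of Dlx5, at 7.43 points, at 99.6. Among all domains, the border values of the short domains of Dlx3 (-4.85 points) and Dlx4 (-4.66 points) stood at percentiles 84.5 and 85.3, and the border of the domain outside genes (-12.7 points) at 31.9. Since the genes were picked with this contrast in view, the percentiles place them and test nothing.

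A bin near 0 cannot fall far, so bins were also compared within classes of their 4-library mean. Bins under 10% averaged -0.89 points over the 27073 measured and 1.68 points over the 31 of the Dlx intervals, of which 21 were higher in iKO and 9 lower. From 10% to 30%, the averages were -6.39 points over 35325 bins and 2.65 points over 17 Dlx bins, with 10 higher and 7 lower. These Dlx bins read 22.7% and 18.4% in iKO and 17.1% and 18.8% in control, so the groups overlapped. From 30% to 60%, they were -11.4 points over 159979 bins and -1.64 points over 43 Dlx bins, with 19 higher and 24 lower. In bins of 60% or more, they were -7.86 points over 1414903 bins and -6.15 points over 78 Dlx bins, with 16 higher and 62 lower. The gap to all bins was thus widest, 9.73 points, in the class from 30% to 60% and narrowest, 1.70 points, among the most methylated bins.

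**Figure D4:**
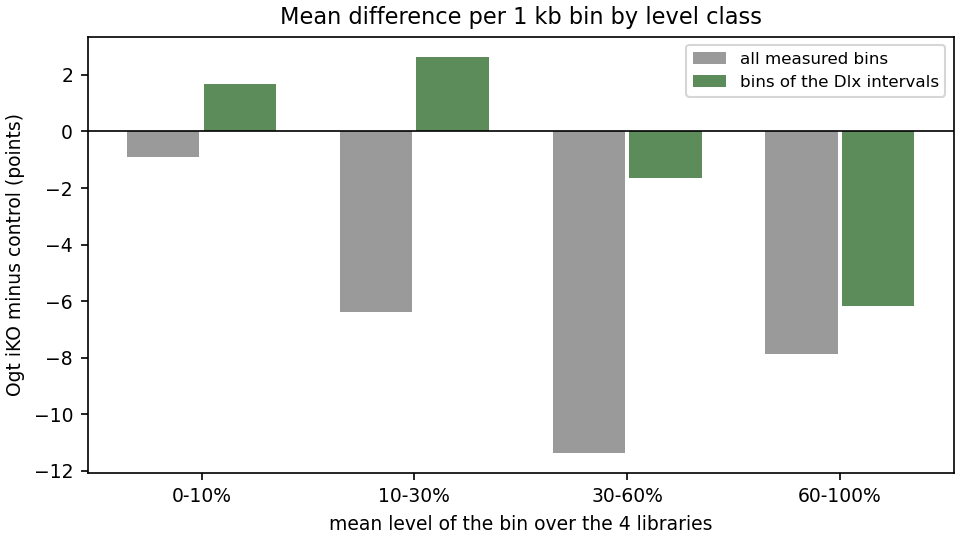
Mean difference in methylation level (Ogt iKO minus control, percentage points) per 1 kb bin, by class of the bin's mean level over the 4 libraries, for all measured bins (grey) and the bins of the Dlx intervals (green). The Dlx bars are above 0 in both classes under 30%, where those of all bins are below 0, and the bars are closest in the class from 60%. In the class from 10% to 30% the library means of the Dlx bins overlap between groups.

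Single bins were fitted across the genome by quasi-binomial logistic regression on methylated against unmethylated reads, with Benjamini-Hochberg adjustment over all bins; a call required at least 10 points and an adjusted p below 0.05. Over 1637280 bins 4 were called lower, or 0.000244%, and 0 higher, or 0%. Bins at interval ends were fitted whole, which makes 170 Dlx bins in place of 169, and of these 0 were called; 15 had an unadjusted p under 0.05 and the smallest adjusted p was 0.257, against 206425 bins, or 12.6%, with such a p genome-wide. With limma on logit levels 0 bins were called anywhere, and an unadjusted p under 0.05 occurred in 10 Dlx bins and in 166389 bins, or 10.2%, genome-wide. In 2 kb bins 20441 were called lower and 33 higher, 1.81% in all, and 1 of 94 Dlx bins was called, lower in iKO with an adjusted p of 0.0431 in the same quasi-binomial fit.

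Counts of bins whose groups do not overlap are set beside the same share over the genome. Genome-wide, 40.1% of bins were apart and lower in iKO and 4.28% apart and higher. Of the 89 flank bins 33 were apart and lower and 6 apart and higher. Of the 47 domain bins 0 were apart and lower and 10 apart and higher, and of the 33 border bins 9 were apart and lower and 8 apart and higher, of which 6 of the latter lay at Dlx5-Dlx6. The rule used this contrast, and nothing is read from these shares.

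Promoters were fitted in the same way over 19672 protein-coding genes, of which 0 were called lower, or 0%, and 0 called higher, or 0%, in iKO; 1448, or 7.36%, had an unadjusted p under 0.05, and of the 6 Dlx genes 0 did. A list of 38 genes that act upstream, downstream or beside the Dlx genes was set beside them. Of these, 0 were called, 19 differed below 0 and 19 above 0, and the median difference was 0.15 points, against -2.16 points and 71.6% below 0 over all promoters. In 17 of the 38 the level was under 10% in all 4 libraries. An unadjusted p under 0.05 occurred in 5 of the 38, namely Sp7, Krt14 and Sp9 below 0 and Zeb2 and Barx1 above 0.

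Of the forebrain genes on the list, Gad1 and Gad2, which encode the enzymes of GABA synthesis and are turned on by DLX factors, read 0.62% to 2.22% and 0.87% to 2.00% over the 4 libraries. Sp9, a zinc finger factor of interneurons, read 0% and 0.84% in iKO and 2.38% and 6.61% in control. Zeb2, another interneuron factor, read 19.1% and 19.2% in iKO and 8.18% and 0% in control.

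Among jaw and bone genes, Hand2, which lies downstream of Dlx5 and Dlx6 in the lower jaw, read 1.85% and 12% in iKO and 2.65% and 5.50% in control. Barx1, a homeobox gene of molars and jaw mesenchyme, read 11.8% and 4.07% in iKO and 0.63% and 2.22% in control. Sp7, an osteoblast factor, read 15.6% and 15.1% in iKO and 29.9% and 25.6% in control, and Runx2, the master factor of bone, 61.3% and 53.7% in iKO and 77.8% and 60.3% in control. Of the skin genes, Krt14, a basal keratin, read 50.8% and 38.8% in iKO and 60.3% and 64.0% in control, and Trp63, which regulates Dlx3, 67.9% and 55.6% in iKO and 42.1% and 81.5% in control. Grhl3, another epidermal gene, read 1.79% and 9.49% in iKO and 11.2% and 4.08% in control, so skin genes of the list were both low and methylated.

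Finally, each Dlx gene was compared with other protein-coding genes over the 40 bins around the start, by the root mean square difference of levels in all 4 libraries over at least 30 shared bins. Dlx1 and Dlx2 differed from each other by 19.9 points, Dlx1 and Dlx5 by 23.7 and Dlx2 and Dlx5 by 22.7. Dlx6 differed from Dlx1 by 25.5 points, from Dlx2 by 29.7 and from its neighbour Dlx5 by 33.1. The pair Dlx3 and Dlx4 differed by 29.2 points, and Dlx1 and Dlx3 by 46.3. The windows of paired genes overlap, which makes part of these values shared. Nearest to Dlx1 were Tead1 (19.4 points), Skor1 (20.3) and Elovl6 (21.6), against a median of 44.6 over 14485 candidates. Near Dlx2 lay Txnip (20.1) and Commd3 (22.3).

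For Dlx5 the nearest genes were Jade1 (20.6 points), Tead1 (21.1) and Elovl6 (21.5), and for Dlx6 they were Zic4 (22.5), a zinc finger gene of the cerebellum, Gm46725 (22.6) and H2bc3 (23). For Dlx3 they were Cfap65 (18.5), Sub1 (18.5) and Gtf3c2 (19.4), and near Dlx4 lay Ikzf3 (18.1) and Castor2 (18.3). A near profile did not always go with a like difference. Over the bins shared with Jade1, Dlx5 differed by -0.53 points and Jade1 by -11.2 points. Over those shared with Tead1, Dlx1 differed by -0.81 points and Tead1 by -3.92 points. Values were closer for Dlx4, at -6.98 points against -7.67 for Ikzf3 and -7.71 points against -8.78 for Castor2. Over the bins shared with Zic4 both were above 0, at 1.33 points for Dlx6 and 2.52 points for Zic4. With the other genes near Dlx6 the signs were opposite. Dlx6 differed by 1.44 points against -3.28 for Gm46725 and by 1.77 points against -5.89 for H2bc3.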

How the data were processed

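Whole-genome bisulfite sequencing of 4 libraries, 2 Ogt iKO and 2 control, was analysed from tables of CpG positions. The submitters' processing notes name BSMAP and Picard as tools and mm10 as the genome build, without their roles; versions and read filters are not given in the sources used here. Per the file headers, each deposited table gives the count of methylated reads and of total reads per CpG, and an expected count, the total corrected for C/T variants, which was used in an alternative only. Each table was matched to its sample by the genotype and replicate number it carries. Both strands of a CpG are already merged. Depth was 3.36 to 4.05 reads per CpG, which makes the level of a single CpG imprecise, so reads were pooled in bins. Reads carry no molecular identifiers, so limits on a count of 0 cover counting error only. Counts in windows and bins are sums over CpGs, and a read that covers several CpGs counts at each. Limits that take these counts as independent are therefore too low.

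Levels were methylated over total reads, computed in Python 3.11.15 with pandas 2.3.3, NumPy 2.4.6 and PyArrow 21.0.0, and zone means weighted bins equally. Gene spans are those of RefSeq on GRCm38.p6, in a table that gives no exons or introns. The quasi-binomial fit used group as its only term in R 4.3.3, with the Pearson dispersion moderated by limma 3.58.1 and kept at 1 or more. It was tested on simulated data with known changes. The members and gene lists were chosen with earlier results of these data known. Genes named are the 6 Dlx genes, genes overlapping their intervals, the 3 genes most alike in profile to each (2 of them not reported here), 4 bins per cluster by the rule given with them and genes of the list of 38; the promoter values of list genes named in the text were picked after they were seen. Alternatives changed the read minimum, bin size, domain limit, depth correction, pooling, test, replicate block and libraries.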

Additional observations from a re-analysis of the deposited data

How the results depend on the processing

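Libraries were left out with the zones kept as drawn from all 4. Without each library in turn, the domain difference ranged from -0.02 to 1.47 points at Dlx1-Dlx2, 1.99 to 4.51 at Dlx3-Dlx4 and 1.55 to 2.80 at Dlx5-Dlx6. The border difference ranged from -2.77 to 8.01, -9.49 to -4.98 and 5.29 to 9.15 points, and the flank difference from -5.57 to -4.25, -9.66 to -3.87 and -5.94 to -4.57 points, in the same order of clusters. Promoter differences ranged from 0.90 to 2.03 points at Dlx1, -1.36 to 0.97 at Dlx2, -0.65 to 24.6 at Dlx3, -1.40 to 2.18 at Dlx4, -1.08 to 1.60 at Dlx5 and stayed at 0 at Dlx6.

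Values that moved by more than the replicate SD were as follows, and the cause was not tested. With at least 3 reads per CpG, the Dlx1-Dlx2 domain was at -1.47 points and its flank at -3.58, the Dlx3-Dlx4 domain at 0.31, the Dlx5-Dlx6 flank at -2.89, and the promoters of Dlx1 and Dlx2 at 0 and -8.34. In 0.5 kb bins the Dlx1-Dlx2 flank was at -6.37 points, the Dlx3-Dlx4 domain at 0.63 and border at -1.57, and the Dlx5-Dlx6 border at 2.98 and flank at -0.85. In 2 kb bins the Dlx1-Dlx2 flank was at -7.50 points, the Dlx3-Dlx4 domain at 0.73 and the Dlx5-Dlx6 border at 3.67, and 1 Dlx bin was called. A limit of 40% gave 1.20 points for the Dlx3-Dlx4 domain and 3.35 for that of Dlx5-Dlx6. Pooling reads over bins gave -5.79 points for the Dlx1-Dlx2 flank and 1.81 for the Dlx3-Dlx4 domain. With edges from replicate 1 and values from replicate 2 of each group, the Dlx1-Dlx2 flank was at -6.40 points, the Dlx3-Dlx4 domain at 1.86, border at -11.3 and flank at -9.80, and the Dlx5-Dlx6 domain at 1.38 and flank at -4.20. With only domains that overlap a Dlx gene, chosen after seeing the data, the Dlx3-Dlx4 domain was at 0.77 points. With at least 3 reads, the Dlx3-Dlx4 border and the Dlx5-Dlx6 domain and border gave no value, and the promoters of Dlx3, Dlx5 and Dlx6 had too few CpGs. As no domain was found at Dlx5-Dlx6 in that setting, its flank value covers all measured bins of the interval.

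Replicate numbers are shared between groups, but the labels give no pairing, and deviations of the 2 replicates numbered 1 from their group means had a correlation of -0.0066 over 1637280 bins. A fit with the replicate number as a block called 0 Dlx bins, as did the fit without it, and 0 bins genome-wide against 4 without it. In simulated counts over 1637280 bins, 200 bins with at least 60 reads in every library were lowered by 60 points. The fit by group alone called 194 of these, and the block fit and limma on logit levels called 0 each. A count of 0 calls under either of the latter does not show that levels were equal. The widest difference of a measured Dlx bin was -36.4 points, on 15 to 33 reads per library. The 194 calls therefore do not carry over to the Dlx bins, and 0 Dlx calls in the fit by group alone do not show equal levels either.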
